A study of Homo sapiens with 8 samples.

Results

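Interferon response genes are the genes that a cell switches on when an interferon binds its receptors, or when the cell senses foreign nucleic acid. The 38 described here were listed by name: transcription factors of the pathway, antiviral effectors, the ISG15 system and the immunoproteasome genes PSMB8 and PSMB9. Among the probe sets that carry a gene's symbol alone, the brightest over the 8 arrays stood for the gene. In this way 37 of the 38 had a value, out of 19775 genes with a probe set, and STAT2 was not analysed here. For all 37 the mean log2 signal reached 6.00, which is the median over the probe sets. Expression had been measured on 8 Affymetrix U133 Plus 2.0 arrays from 4 established non-small cell lung cancer lines, H1650 and H1975 with mutated EGFR and A549 and H460 with mutated K-Ras. Cells of each line were stained with Hoechst dye and sorted into the side population (SP), which pumps the dye out, and the main population (MP), which keeps it, and each gave 1 array. No interferon or drug is named for any group, so all levels are those of cultured, stained and sorted cells. The 2 arrays of a line, SP and MP, are not stated to come from separate cultures, so a p-value between lines measures only the spread between these arrays.

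Interferons alpha, beta and lambda signal through the kinases JAK1 and TYK2 to a complex that holds STAT2 and IRF9 and binds the interferon-stimulated response element (ISRE) of its target genes. Interferon gamma acts mainly through another element, the gamma-activated site (GAS). Many targets encode proteins that detect viral RNA, block viral entry or degrade RNA, and tumour cells can express some of them without added interferon.

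The values are log2 MAS5 signals on arrays scaled alike, with array medians between 5.92 and 6.29. ABCG2, the dye transporter that marks SP cells, was higher in SP than in MP cells by 1.17 in H1975, 1.08 in A549 and 0.36 in H460 on the log2 scale. In H1650 it went against the label, at -0.70, and the labels were used as deposited with SP results also given without H1650. All 6 epithelial markers were at or above the array median in H1650, H1975 and A549. In the libraries labelled H460, 5 of 6 (SP) and 4 of 6 (MP) epithelial markers were at or above the array median. The epithelial cadherin gene CDH1 was at 1.61 (SP) and 0.63 (MP) there. All 5 fibroblast markers were at or above the median in H460, against 3 or 4 of 5 on the other arrays. The part of these markers in the H460 results was not tested. Of 8 leukocyte markers measured, 1 or 2 reached the median on each array, and the defining leukocyte gene PTPRC lay between 3.14 and 4.72.

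The interferon response genes differed between lines far more than between SP and MP cells. Their median log2 signal was 10.80 (SP) and 10.70 (MP) in H1650, 10.05 (SP) and 10.25 (MP) in H1975, 8.38 (SP) and 8.87 (MP) in A549, and 8.19 (SP) and 8.43 (MP) in H460. The 4 arrays of H1650 and H1975 thus all lay above the 4 arrays of A549 and H460 in this median. In bulk RNA, fewer expressing cells and less RNA per cell cannot be told apart. The range of a gene's 4 line means had a median of 3.72 on the log2 scale over the 37 genes and of 1.32 over all genes. In each of the 37 that range was wider than the difference between SP and MP in any line. No share over all genes is given for this count or for the next counts of highest and lowest lines. H1650 had the highest mean for 19 genes and H1975 for 14, while A549 led for IRF1, IRF7 and OAS3 and H460 for OAS1. The lowest mean was that of H460 for 22 genes, A549 for 11, H1975 for 3 and H1650 for IRF7.

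**Figure D1:**
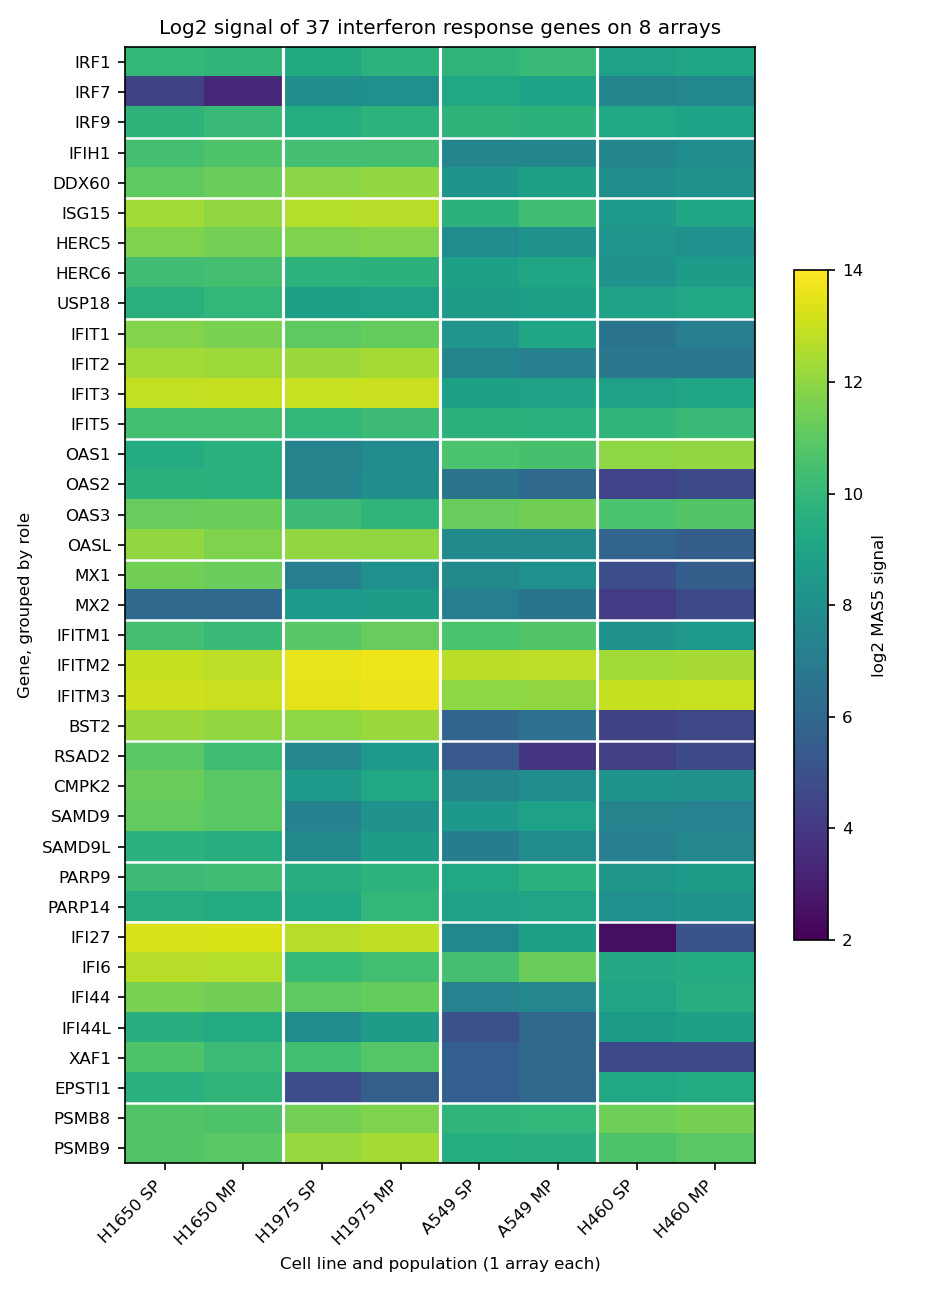
The log2 MAS5 signal (colour scale) of 37 interferon response genes, in rows grouped by role, on the 8 arrays in columns, SP left of MP within each line. The arrays of H1650 and H1975 are brighter for most genes, and IRF7 and OAS1 are exceptions.

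Each line was tested against the mean of the other 3 in a limma fit over all genes, so these 4 contrasts share their arrays. In H1650, 27 of the 37 genes were higher and 2 lower with a limma adjusted p below 0.05, where 16.9% of all genes were higher and 17.2% lower. H1975 had 22 higher and 5 lower (18.8% and 16.2% of all genes). A549 had 5 higher and 24 lower (15% and 13.8% of all genes), and H460 had 4 higher and 27 lower (15.6% and 18.9%). The median log2 difference of the 37 genes was 1.91 in H1650 (all genes -0.03), 0.90 in H1975 (0.11), -1.20 in A549 (0.04) and -1.32 in H460 (-0.11). Genes outside these calls in H1650 were IRF9, MX2, IFITM1, IFITM2, IFITM3, PARP14, PSMB8 and PSMB9. The 2 lower in H1650 were IRF7 and OAS1, and OAS1 lost its call without the H1650 SP array (limma adjusted p = 0.102), the H1650 MP array (0.0517) or the H460 SP array (0.0583). The 5 higher in A549 were IRF1, IRF7, OAS1, OAS3 and IFITM1, a count that was 1 without the A549 SP array and 2 without the A549 MP array.

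**Figure D2:**
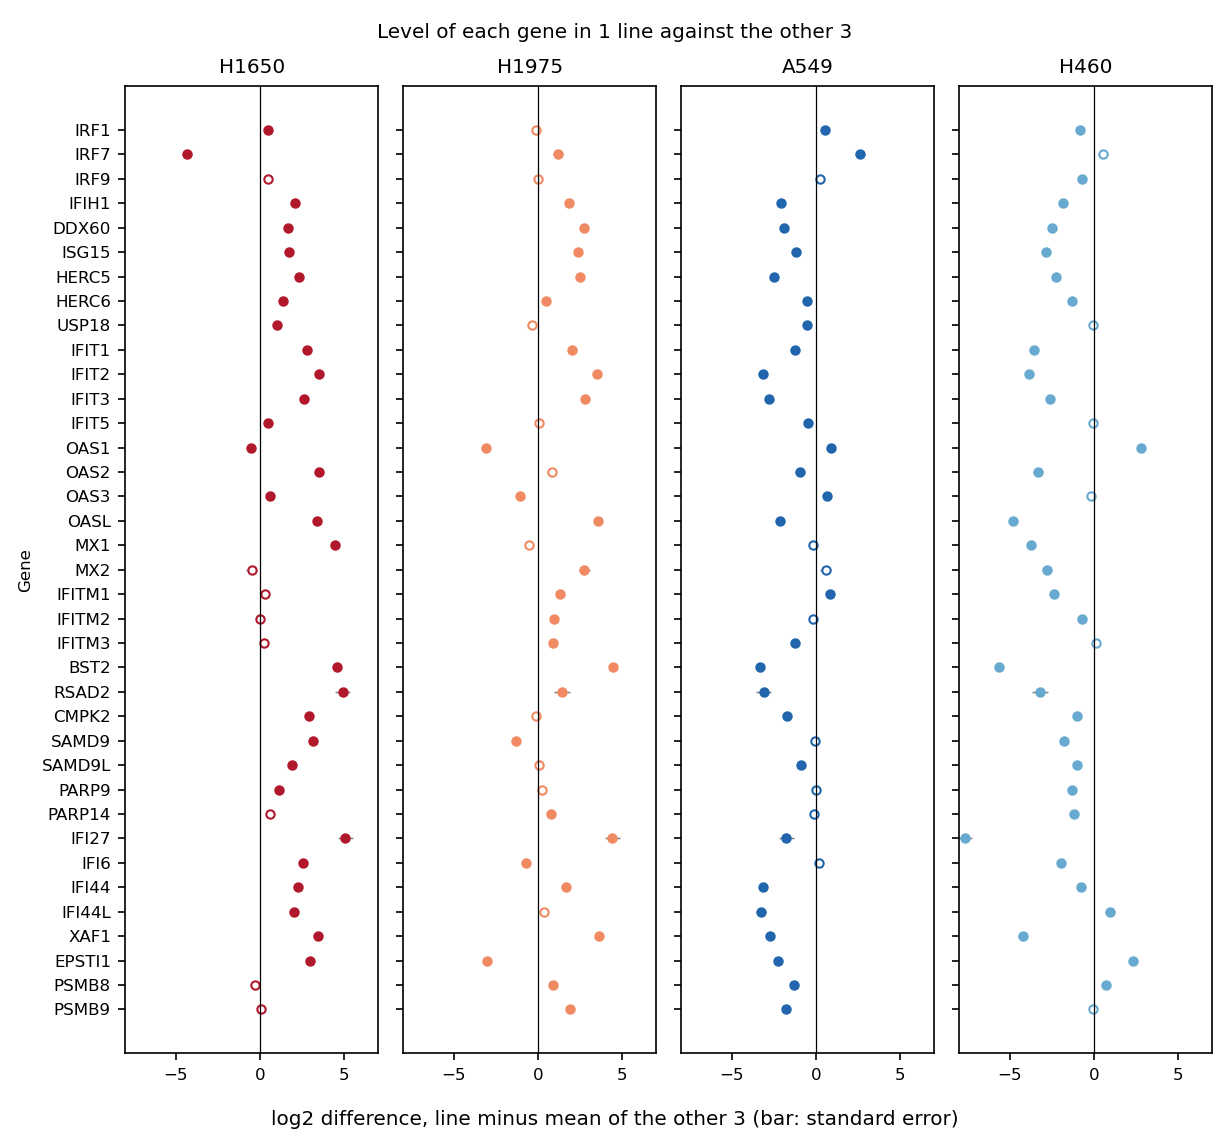
The log2 difference of each of the 37 genes between 1 line and the mean of the other 3 (horizontal axis, bars are the standard error), 1 panel per line. Filled points have a limma adjusted p under 0.05 and open points do not. In H1650, 27 filled points lie right of 0, and in H460, 27 lie left of 0.

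A stricter description asks for separation on every array. For 19 of the 37 genes all 4 arrays of H1650 and H1975 lay above all 4 arrays of A549 and H460, as they did for 10.3% of all genes. The opposite held for OAS1 alone (8.88% of all genes). The gap between the nearest arrays of these sets was at least 2-fold for 13 of the 37 (1.79% of all genes) and at least 4-fold for 10 (0.647%). These 10 were IFIH1, DDX60, HERC5, IFIT2, IFIT3, OASL, BST2, RSAD2, IFI27 and XAF1. A gap of at least 2-fold in the opposite direction was found for 0 of the 37 (1.58% of all genes).

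Of the 3 transcription factors measured, IRF7 ran against the majority. IRF1, a factor induced by interferon gamma, had 10.01 (SP) and 9.87 (MP) in H1650, 9.28 (SP) and 9.74 (MP) in H1975, 9.85 (SP) and 10.11 (MP) in A549, and 8.86 (SP) and 9.12 (MP) in H460. Its line means spanned 1.99-fold. It was higher in H1650 than in the other lines by 0.45 (standard error 0.15, limma adjusted p = 0.0498), a call lost without either A549 array, either H460 array, the H1650 SP array or the H1975 SP array (limma adjusted p between 0.0947 and 0.414). H460 was the lowest, with a log2 difference from the other lines of -0.82 (standard error 0.15, limma adjusted p = 0.00365). IRF9, the DNA-binding subunit of the complex with STAT2, had line means of 9.95 in H1650, 9.61 in H1975, 9.78 in A549 and 9.09 in H460, and H460 was lower than the other lines by a log2 difference of -0.69 (standard error 0.15, limma adjusted p = 0.0095). Without the H460 SP array IRF1 lost its call in H460 (limma adjusted p = 0.0592), and without the H460 MP array IRF9 did (0.173). IRF7, which amplifies interferon production in infected cells, had 4.37 (SP) and 3.31 (MP) in H1650, 7.97 (SP) and 8.01 (MP) in H1975, 9.18 (SP) and 8.95 (MP) in A549, and 7.40 (SP) and 7.59 (MP) in H460. The H1650 arrays were thus the lowest and the A549 arrays the highest. The log2 difference from the other lines was -4.34 (standard error 0.30, limma adjusted p = 4.27e-05) in H1650 and 2.62 (standard error 0.30, limma adjusted p = 0.000593) in A549.

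IFIH1, which detects long double-stranded RNA, had 10.44 (SP) and 10.70 (MP) in H1650, 10.43 (SP) and 10.43 (MP) in H1975, 7.45 (SP) and 7.50 (MP) in A549, and 7.52 (SP) and 7.82 (MP) in H460. The upper and lower 4 arrays were 2.61 apart on the log2 scale, and H1975 differed from A549 by 2.96 (standard error 0.18, limma adjusted p = 2.24e-05). H1650 and H1975 did not differ beyond their spread (limma adjusted p = 0.61), nor did A549 and H460 (0.479). DDX60, an RNA helicase, had line means of 11.17 in H1650, 11.97 in H1975, 8.52 in A549 and 8.06 in H460, and here H1975 was above H1650. The 30 bases around an ISRE match before a start site are shown for both genes (letters GAAANNGAAA, or TTTCNNTTTC where the element lies on the other strand, in capitals). They come from the RefSeq promoter table of build GRCh38.p14, IFIH1 at chr2:162318686-162318715, minus strand, and DDX60 at chr4:168318786-168318815, minus strand.
IFIH1: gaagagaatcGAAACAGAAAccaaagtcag
DDX60: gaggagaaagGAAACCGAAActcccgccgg

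The ISG15 system attaches a small ubiquitin-like protein to others. ISG15, the modifier itself, had 12.34 (SP) and 12.01 (MP) in H1650, 12.65 (SP) and 12.73 (MP) in H1975, 9.69 (SP) and 10.31 (MP) in A549, and 8.45 (SP) and 9.04 (MP) in H460. H1975 was above A549 by 2.69 (standard error 0.23, limma adjusted p = 0.000104), and A549 above H460 by 1.26 (standard error 0.23, limma adjusted p = 0.00573). HERC5, the ligase that conjugates ISG15, had 11.67 (SP) and 11.48 (MP) in H1650, 11.66 (SP) and 11.77 (MP) in H1975, 7.83 (SP) and 8.17 (MP) in A549, and 8.24 (SP) and 8.06 (MP) in H460. The sets of arrays were 3.25 apart, with no difference beyond the spread inside either pair of lines (limma adjusted p = 0.619 for H1650 and H1975, 0.599 for A549 and H460). HERC6, a related ligase gene, had line means of 10.38 in H1650, 9.73 in H1975, 8.96 in A549 and 8.37 in H460. USP18, the protease that removes ISG15 and dampens receptor signalling, spanned 2.2-fold and was highest in H1650, at a log2 difference of 0.97 (standard error 0.14, limma adjusted p = 0.00111) from the other lines.

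The 250 bases before the ISG15 start site are shown for their 2 overlapping ISRE matches, in capitals (chr1:1013247-1013496, plus strand, GRCh38.p14, RefSeq), with 30 bases of HERC5 (chr4:88457035-88457064, plus strand).
ISG15: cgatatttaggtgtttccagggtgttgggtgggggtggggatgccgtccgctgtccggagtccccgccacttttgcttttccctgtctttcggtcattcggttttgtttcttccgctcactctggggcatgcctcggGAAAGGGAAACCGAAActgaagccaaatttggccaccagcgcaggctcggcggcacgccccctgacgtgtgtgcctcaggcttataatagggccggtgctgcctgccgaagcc
HERC5: aaacattatgTTTCGTTTTCcactggagct

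IFIT proteins bind foreign RNA. IFIT3, which stabilises IFIT1 on RNA, had 12.91 (SP) and 12.94 (MP) in H1650, 13.00 (SP) and 13.05 (MP) in H1975, 8.84 (SP) and 8.92 (MP) in A549, and 8.88 (SP) and 9.12 (MP) in H460. Within each set of 4 arrays the values lay close together, and the sets were 3.80 apart. H1975 was above A549 by 4.15 (standard error 0.12, limma adjusted p = 1.41e-06), while no difference beyond the spread was seen between H1650 and H1975 (limma adjusted p = 0.599) or A549 and H460 (0.546). IFIT2, an RNA-binding relative, had 12.32 (SP) and 12.23 (MP) in H1650, 12.21 (SP) and 12.38 (MP) in H1975, 7.41 (SP) and 7.24 (MP) in A549, and 6.80 (SP) and 6.78 (MP) in H460. Its gap was 4.80, and A549 was above H460 by a further 0.53 (standard error 0.15, limma adjusted p = 0.0389). IFIT1, which recognises viral RNA caps, had 11.78 (SP) and 11.57 (MP) in H1650, 11.03 (SP) and 11.15 (MP) in H1975, 8.24 (SP) and 9.06 (MP) in A549, and 6.60 (SP) and 7.15 (MP) in H460. Here the K-Ras mutant lines also parted, with A549 above H460 by 1.78 (standard error 0.25, limma adjusted p = 0.00153). IFIT5 spanned only 1.62-fold, with line means of 10.38 in H1650, 10.09 in H1975, 9.68 in A549 and 9.99 in H460. The 4 genes lie within 119.0 kb of chromosome 10 (GRCh38.p14).

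The 250 bases before a start site of IFIT3 (chr10:89327747-89327996, plus strand, GRCh38.p14, RefSeq) hold 2 ISRE matches, in capitals, and IFIT1 is shown by 30 bases around 1 match (chr10:89392510-89392539, plus strand).
IFIT3: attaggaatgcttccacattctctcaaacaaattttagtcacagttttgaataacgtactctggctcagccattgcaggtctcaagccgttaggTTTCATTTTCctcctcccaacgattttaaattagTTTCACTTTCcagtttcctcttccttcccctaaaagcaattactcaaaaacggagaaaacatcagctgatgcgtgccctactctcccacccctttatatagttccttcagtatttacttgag
IFIT1: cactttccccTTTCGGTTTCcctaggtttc

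The OAS enzymes make oligoadenylates that activate an RNA-degrading enzyme. OAS1 had 9.39 (SP) and 9.65 (MP) in H1650, 7.38 (SP) and 7.79 (MP) in H1975, 10.62 (SP) and 10.52 (MP) in A549, and 11.97 (SP) and 12.07 (MP) in H460. H460 was highest and H1975 lowest, and each step in the order H460, A549, H1650, H1975 passed the test. The log2 difference from the other lines was 2.79 (standard error 0.13, limma adjusted p = 6.84e-06) in H460 and -3.12 (standard error 0.13, limma adjusted p = 6.82e-06) in H1975. OAS2 had 9.72 (SP) and 9.67 (MP) in H1650, 7.37 (SP) and 7.98 (MP) in H1975, 6.62 (SP) and 6.09 (MP) in A549, and 4.44 (SP) and 4.75 (MP) in H460, so H1650 led and H460 was last. The H460 values of OAS2 are dim. In another OAS2 probe set H460, at 5.63 (SP) and 5.45 (MP), lay above A549, at 4.87 (SP) and 4.98 (MP). In the remaining OAS2 probe set H460 again had the lowest mean. OAS3 spanned only 2.42-fold, with line means of 11.26 in H1650, 10.03 in H1975, 11.31 in A549 and 10.71 in H460. OASL, a relative that lacks the enzyme activity, had 12.06 (SP) and 11.68 (MP) in H1650, 12.04 (SP) and 11.99 (MP) in H1975, 7.76 (SP) and 7.69 (MP) in A549, and 5.92 (SP) and 5.53 (MP) in H460. Its gap was 3.92. OAS1, OAS3 and OAS2 lie within 104.8 kb of chromosome 12 (GRCh38.p14), and their highest lines were H460, A549 and H1650 in that order, although for OAS3 A549 and H1650 did not differ beyond their spread (limma adjusted p = 0.863). The other OAS1 probe set was also highest in H460.

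OAS1 is shown by the 250 bases before its start site (chr12:112906712-112906961, plus strand, GRCh38.p14, RefSeq) because its pattern ran the other way. No letters are in capitals, since the ISRE letters, which fix the spacing between the repeats (GAAANNGAAA), have no match in this window. The run gaaacgaaa near its end has a closer spacing and was therefore not counted. Whether it is a binding site was not tested, nor was any link to the pattern of OAS1.
OAS1: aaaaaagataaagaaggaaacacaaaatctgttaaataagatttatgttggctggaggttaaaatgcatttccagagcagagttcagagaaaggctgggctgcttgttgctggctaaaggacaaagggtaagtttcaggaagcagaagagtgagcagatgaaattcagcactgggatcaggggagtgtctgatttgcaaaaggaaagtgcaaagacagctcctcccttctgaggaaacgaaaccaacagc

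The Mx GTPases trap viral particles. MX1 had 11.44 (SP) and 11.25 (MP) in H1650, 7.19 (SP) and 8.02 (MP) in H1975, 7.70 (SP) and 8.0 (MP) in A549, and 4.90 (SP) and 5.53 (MP) in H460. H1650 stood alone at the top, by 4.45 (standard error 0.24, limma adjusted p = 1.50e-05) over the other lines, and A549 and H1975 did not differ beyond their spread (limma adjusted p = 0.594). MX2 had 6.10 (SP) and 6.11 (MP) in H1650, 8.44 (SP) and 8.64 (MP) in H1975, 7.13 (SP) and 6.68 (MP) in A549, and 4.11 (SP) and 4.68 (MP) in H460. Here H1975 was highest, by 2.74 (standard error 0.31, limma adjusted p = 0.000387) over the other lines, and H1650 and A549 did not differ beyond their spread (limma adjusted p = 0.16). The genes are neighbours within 97.2 kb of chromosome 21 (GRCh38.p14).

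**Figure D3:**
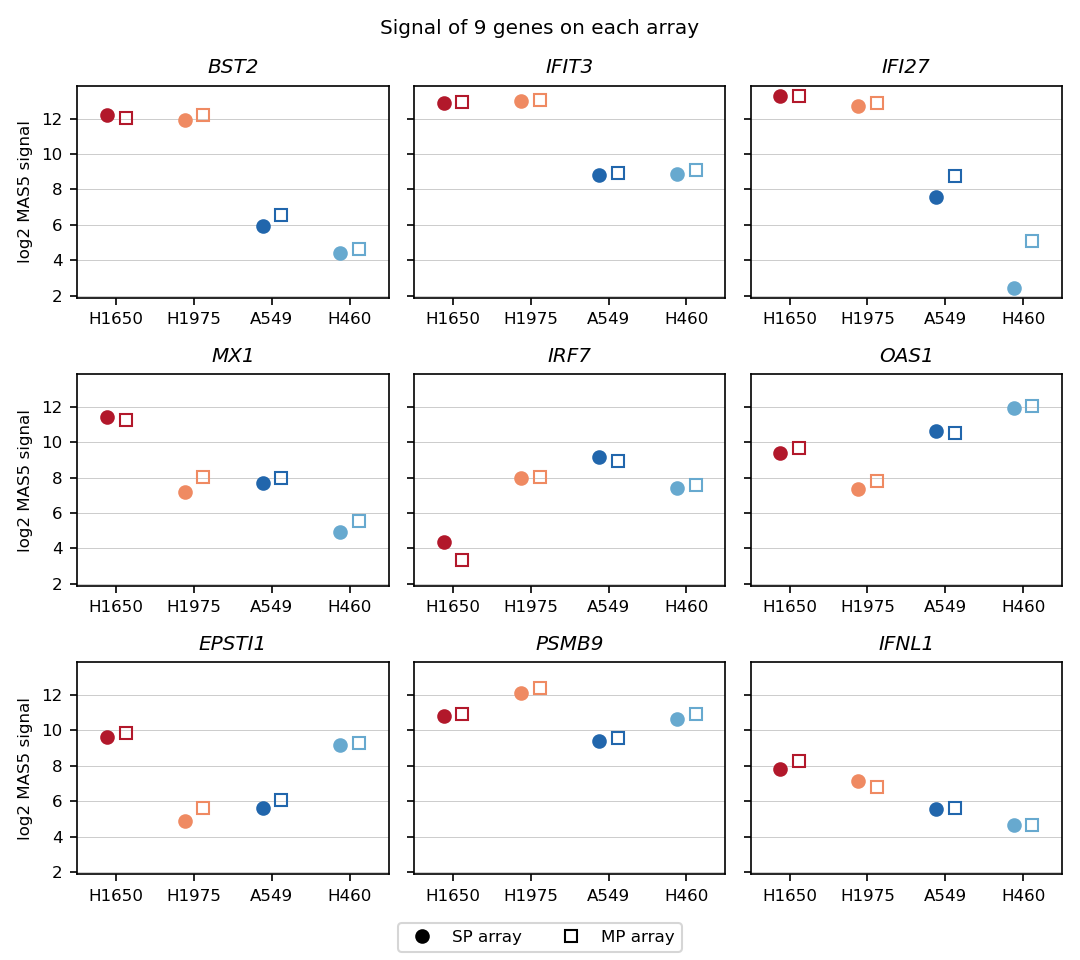
The log2 MAS5 signal (vertical axis) of 9 genes on the SP array (filled circles) and MP array (open squares) of each line. BST2, IFIT3 and IFI27 lie high in H1650 and H1975, MX1 is highest in H1650, IRF7 is lowest in H1650, OAS1 is highest in H460, and EPSTI1 is high in H1650 and H460.

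BST2 (tetherin), which holds budding virus at the cell surface, had the widest gap of the 37 genes, with 12.20 (SP) and 12.06 (MP) in H1650, 11.95 (SP) and 12.18 (MP) in H1975, 5.92 (SP) and 6.54 (MP) in A549, and 4.38 (SP) and 4.62 (MP) in H460. The upper and lower 4 arrays were 5.41 apart. The line means spanned 199-fold, or 140-fold with signals under 32 set to 32, since both H460 values are dim. H1975 was above A549 by 5.84 (standard error 0.22, limma adjusted p = 3.89e-06) and A549 above H460 by 1.73 (standard error 0.22, limma adjusted p = 0.00105), while H1650 and H1975 did not differ beyond their spread (limma adjusted p = 0.868). The IFITM proteins, which stop viruses from fusing with the cell, varied less. IFITM1 had 10.41 (SP) and 10.12 (MP) in H1650, 10.90 (SP) and 11.22 (MP) in H1975, 10.60 (SP) and 10.74 (MP) in A549, and 8.13 (SP) and 8.43 (MP) in H460, and H460 was below the other lines by a log2 difference of -2.39 (standard error 0.15, limma adjusted p = 1.95e-05). IFITM2 and IFITM3 were highest in H1975 and spanned 2.4-fold and 3.03-fold. Their probe sets are of a design that can bind related transcripts, so the signals of the 3 IFITM genes, which lie within 13.0 kb of chromosome 11 (GRCh38.p14), may be partly shared. BST2 is shown by its 250 upstream bases (chr19:17405631-17405880, minus strand, GRCh38.p14, RefSeq), with 2 overlapping ISRE matches in capitals.
BST2: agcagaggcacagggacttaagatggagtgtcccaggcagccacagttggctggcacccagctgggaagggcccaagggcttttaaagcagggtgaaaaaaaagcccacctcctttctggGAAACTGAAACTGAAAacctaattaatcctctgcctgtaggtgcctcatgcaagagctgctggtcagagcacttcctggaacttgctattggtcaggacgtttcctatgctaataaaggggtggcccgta

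RSAD2 (viperin), which makes a nucleotide that stops viral RNA synthesis, had 10.91 (SP) and 10.26 (MP) in H1650, 7.54 (SP) and 8.43 (MP) in H1975, 5.36 (SP) and 3.79 (MP) in A549, and 4.28 (SP) and 4.76 (MP) in H460. H1650 was above H1975 by 2.59 (standard error 0.57, limma adjusted p = 0.0108), and H1975 above A549 by 3.41 (standard error 0.57, limma adjusted p = 0.00273). The values in A549 and H460 are dim. When signals under 32 were set to 32, the log2 difference of H1975 from the other lines was 1.07 and no longer passed (limma adjusted p = 0.111, against 1.43 and 0.0481 as deposited). The H1975 call was also lost with a pseudocount of 16 and without the variance trend. It was lost too without the A549 MP, either H1650, the H460 SP or the H1975 MP array. Without the H1975 MP array the log2 difference was 0.69. CMPK2, a mitochondrial nucleotide kinase encoded beside RSAD2, had line means of 11.10 in H1650, 8.83 in H1975, 7.65 in A549 and 8.15 in H460. SAMD9, an inhibitor of viral translation, had 11.11 (SP) and 10.94 (MP) in H1650, 7.29 (SP) and 8.10 (MP) in H1975, 8.38 (SP) and 8.87 (MP) in A549, and 7.36 (SP) and 7.30 (MP) in H460. H1650 stood 3.14 (standard error 0.22, limma adjusted p = 4.40e-05) above the other lines. H1975 was below the mean of the other 3 by a log2 difference of -1.30 (standard error 0.22, limma adjusted p = 0.00275). That mean holds the high H1650 values, and SAMD9 did not differ between H1975 and H460 beyond their spread (limma adjusted p = 0.351). Its relative SAMD9L had line means of 9.57 in H1650, 8.16 in H1975, 7.44 in A549 and 7.37 in H460.

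PARP9 and PARP14 belong to the ADP-ribosyltransferase family. PARP9 had line means of 10.28 in H1650, 9.62 in H1975, 9.44 in A549 and 8.46 in H460, and PARP14 of 9.43 in H1650, 9.56 in H1975, 8.94 in A549 and 8.12 in H460. Both were lower in H460 than in the other lines, PARP9 by a log2 difference of -1.32 (standard error 0.13, limma adjusted p = 0.000204) and PARP14 by -1.20 (standard error 0.19, limma adjusted p = 0.00193). With the mean of all its probe sets PARP14 lost this call (limma adjusted p = 0.0845). The probe sets of PARP14 did not agree, with a lowest Pearson r of -0.125 between them over the 8 arrays.

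IFI27, a small mitochondrial protein gene, had the widest span of the 37, with 13.27 (SP) and 13.31 (MP) in H1650, 12.72 (SP) and 12.86 (MP) in H1975, 7.59 (SP) and 8.77 (MP) in A549, and 2.42 (SP) and 5.06 (MP) in H460. Line means spanned 747-fold, but the H460 values are dim, and with signals under 32 set to 32 the span was 306-fold. H1975 was above A549 by 4.61 (standard error 0.55, limma adjusted p = 0.000521) and A549 above H460 by 4.44 (standard error 0.55, limma adjusted p = 0.000884). IFI6, of the same family, had 12.73 (SP) and 12.65 (MP) in H1650, 10.05 (SP) and 10.38 (MP) in H1975, 10.48 (SP) and 11.32 (MP) in A549, and 9.22 (SP) and 9.39 (MP) in H460. H1650 was 2.55 (standard error 0.17, limma adjusted p = 3.50e-05) above the other lines. H1975 was above H460 by 0.91 (standard error 0.21, limma adjusted p = 0.0105). Against the mean of the other 3 lines it was lower, by a log2 difference of -0.75 (standard error 0.17, limma adjusted p = 0.0104). The IFI6 call in H1975 was lost without either H1975 array (limma adjusted p = 0.089 without the SP and 0.0887 without the MP array). XAF1, a binding partner of the apoptosis inhibitor XIAP, had 10.68 (SP) and 10.20 (MP) in H1650, 10.36 (SP) and 10.82 (MP) in H1975, 5.60 (SP) and 6.03 (MP) in A549, and 4.70 (SP) and 4.71 (MP) in H460, a gap of 4.16.

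IFI44 had line means of 11.52 in H1650, 11.08 in H1975, 7.44 in A549 and 9.25 in H460. Its neighbour IFI44L had 9.59 (SP) and 9.34 (MP) in H1650, 7.82 (SP) and 8.61 (MP) in H1975, 4.98 (SP) and 6.04 (MP) in A549, and 8.52 (SP) and 8.83 (MP) in H460. A549 was below the other lines by a log2 difference of -3.28 (standard error 0.27, limma adjusted p = 0.000133). Unlike for most of the 37 genes, H460 was above the mean of the other 3, by 0.95 (standard error 0.27, limma adjusted p = 0.0301). That mean holds the low A549 values, and H460 did not differ beyond the spread from H1650 (limma adjusted p = 0.109) or H1975 (0.34). The H460 call of IFI44L was lost without the H460 SP array (limma adjusted p = 0.23), the H460 MP array (0.144), the H1975 SP array (0.065) or the A549 SP array (0.0546). EPSTI1, first found in breast cancer cells grown with stroma, had 9.61 (SP) and 9.87 (MP) in H1650, 4.86 (SP) and 5.64 (MP) in H1975, 5.59 (SP) and 6.04 (MP) in A549, and 9.17 (SP) and 9.32 (MP) in H460. It put an EGFR mutant line beside a K-Ras mutant line, since H1650 and H460 did not differ beyond their spread (limma adjusted p = 0.219), nor did H1975 and A549 (0.163). A549 differed from H460 by a log2 difference of -3.43 (standard error 0.28, limma adjusted p = 0.000106).

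Windows of 30 bases around an ISRE match before a start site are shown (GRCh38.p14, RefSeq, match in capitals). RSAD2, IFI27 and IFI44 were higher in both EGFR mutant lines, RSAD2 only narrowly in H1975. SAMD9, IFI6 and EPSTI1 were lower in H1975. The windows lie, in that order, at chr2:6877622-6877651, plus strand, at chr14:94110631-94110660, plus strand, at chr1:78649759-78649788, plus strand, at chr7:93118096-93118125, minus strand, at chr1:27672266-27672295, minus strand, at chr13:42992272-42992301, minus strand.
RSAD2: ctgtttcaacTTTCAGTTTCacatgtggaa
IFI27: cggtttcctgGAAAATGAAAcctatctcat
IFI44: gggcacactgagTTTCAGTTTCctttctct
SAMD9: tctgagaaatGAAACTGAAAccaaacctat
IFI6: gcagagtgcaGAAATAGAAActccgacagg
EPSTI1: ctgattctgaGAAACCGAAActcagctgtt

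PSMB8 and PSMB9 are immunoproteasome subunits, which replace standard subunits to make peptides for antigen presentation. PSMB9 had 10.80 (SP) and 10.94 (MP) in H1650, 12.13 (SP) and 12.40 (MP) in H1975, 9.42 (SP) and 9.56 (MP) in A549, and 10.63 (SP) and 10.94 (MP) in H460. The log2 difference from the other lines was 1.88 (standard error 0.10, limma adjusted p = 1.34e-05) in H1975 and -1.82 (standard error 0.10, limma adjusted p = 2.03e-05) in A549. PSMB8 had line means of 10.70 in H1650, 11.58 in H1975, 9.90 in A549 and 11.45 in H460, so H460 lay beside H1975 rather than A549. The genes lie within 19.1 kb of chromosome 6 (GRCh38.p14).

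Pairs of lines were compared in the same fit, and the 6 pairs share arrays. Of the 37 genes, 28 were higher and 2 lower in H1650 than in A549 (15.3% and 15.7% of all genes), and 29 and 3 in H1650 than in H460 (18.7% and 17.2%). H1975 had 22 higher and 4 lower than A549 (17% and 16.1%), and 24 higher and 3 lower than H460 (19.4% and 15.9%). Between the EGFR mutant lines, 14 were higher and 8 lower in H1650 than in H1975 (15.1% and 16.3%). MX1, EPSTI1, SAMD9, RSAD2, IFI6, CMPK2, OAS1 and OAS2 were among the higher, and the lower were IRF7, MX2, DDX60, IFITM1, IFITM2, IFITM3, PSMB8 and PSMB9. Between the K-Ras mutant lines, 21 were higher and 7 lower in A549 than in H460 (13.7% and 11.4%), the lower being OAS1, IFITM3, IFI44, IFI44L, EPSTI1, PSMB8 and PSMB9. The 4 lower in H1975 than in A549 became 2 without the A549 MP or the H1975 SP array. The 14 became 9 without the H1650 SP array, and the 21 became 10 to 12 without any 1 of the 4 arrays of A549 and H460.

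With the line as the replicate, the EGFR mutant lines were compared with the K-Ras mutant lines, 2 against 2. None of the 37 passed a limma adjusted p of 0.05 (0% of all genes). At an unadjusted p under 0.05 there were 15 higher and 1 lower, OAS1, of the 37, and 1633 of all genes. IFIT2 and IFIT3 came nearest, with log2 differences of 5.22 (standard error 0.41, limma adjusted p = 0.0966) and 4.04 (standard error 0.29, limma adjusted p = 0.0966). In sign 33 of the 37 were higher in the EGFR mutant lines (52.9% of all genes), with a median log2 difference of 1.46 (all genes 0.05). That median was 2.37 without H1975, with 21 of the 37 at an unadjusted p under 0.05 (1736 of all genes), and 1.10 without H1650, with 15 (1815 of all genes). With 2 lines of each genotype, the mutation and everything else that sets these lines apart cannot be told apart.

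SP cells were compared with MP cells over the 4 lines with the line as a block. None of the 37 genes passed a limma adjusted p of 0.05, nor did any other gene (0% in either direction), and the smallest adjusted p among the 37 was 0.958. At an unadjusted p under 0.05 there were 3 of the 37 (DDX60, IFI27 and PSMB9) and 690 of all genes. In sign 33 of the 37 were lower in SP cells (54.4% of all genes), but the sizes were small, with a median log2 difference of -0.17 (all genes -0.02). The exceptions in sign were IRF7, IFIT2, OASL and RSAD2.

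By line, 34 of the 37 genes were lower in SP cells in H1975 (56.5% of all genes were lower and 43.5% higher), 28 in A549 (46.7% lower and 53.3% higher) and 31 in H460 (54.2% lower and 45.8% higher). In H1650, by its labels, 24 were higher and 13 lower (47.4% and 52.5% of all genes). The median log2 ratio of the 37 was 0.11 in H1650, -0.23 in H1975, -0.21 in A549 and -0.20 in H460. In A549, H460 and H1975 alike 23 of the 37 were lower (18% of all genes) and 1, OASL, was higher (14.5%). Of the 23, 15 were higher in H1650 (11.2% of all genes show this pattern), ISG15, MX1 and BST2 among them, and 8 were lower in H1650 too (6.82%): IFIH1, DDX60, USP18, IFIT3, PARP9, IFI27, EPSTI1 and PSMB9. OASL was higher in all 4 lines (3.78%), with log2 ratios of 0.38 in H1650, 0.05 in H1975, 0.07 in A549 and 0.39 in H460. In the other OASL probe set the H1975 SP array, at 11.46, lay just below the MP array, at 11.47.

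**Figure D4:**
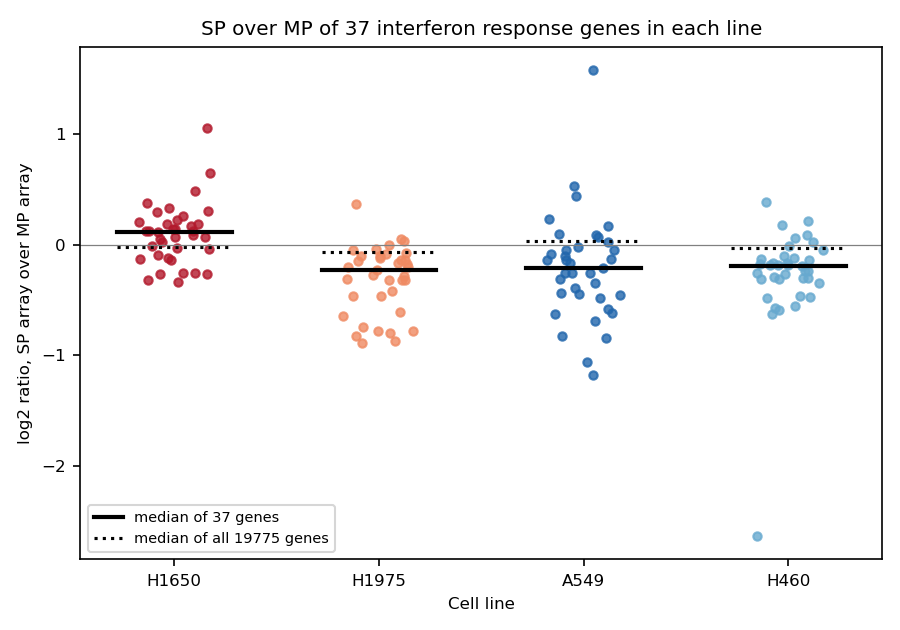
The log2 ratio of the SP array over the MP array (vertical axis) for each of the 37 genes (points) in each line, with the median of the 37 genes (solid line) and of all genes (dotted line). The solid line lies at 0.11 in H1650 and between -0.23 and -0.20 in the other lines.

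Few ratios reached 2-fold within a line, and with 1 array per population these have no test. IRF7 had a log2 ratio of 1.05 in H1650, RSAD2 had 1.58 in A549, IFI27 had -1.18 in A549 and -2.64 in H460, and IFI44L had -1.06 in A549. At least 2-fold higher were thus 1 gene in H1650 (6.21% of all genes), 0 in H1975 (6.29%), 1 in A549 (10.2%) and 0 in H460 (7.48%). At least 2-fold lower were 0 in H1650 (8.32%), 0 in H1975 (9.55%), 2 in A549 (6.65%) and 1 in H460 (8.64%). With signals under 32 set to 32, IRF7 in H1650, RSAD2 in A549 and IFI27 in H460 did not reach 2-fold.

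Without H1650, the fit again called none of the 37, while 19 of all genes passed a limma adjusted p of 0.05. Here 10 of the 37 had an unadjusted p under 0.05 (1978 of all genes) and 32 were lower in sign, with a median of -0.24. ISG15 had the smallest adjusted p, at a log2 difference of -0.43 (standard error 0.13, limma adjusted p = 0.345). With the labels of H1650 exchanged, 163 genes were called and none of them was among the 37, of which 11 had an unadjusted p under 0.05, as had 2471 of all genes. The log2 ratio of 1 line was also tested against those of the other 3, for each line in turn. None of the 37 passed a limma adjusted p of 0.05, where 0.00506% of all genes were called lower for H1975 and 0% in every other case. At an unadjusted p under 0.05 there were 2 of the 37 for H1650 (ISG15 and IFITM1, both higher; 9.5% of all genes), 1 for H1975 (OAS3, higher; 4.86%), 2 for A549 (RSAD2 higher and IFI6 lower; 5.18%) and 1 for H460 (IFI27, lower; 3.61%), so none of these counts stood out from all genes.

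Other genes of the pathway were described by role, and their called counts are to be read against the percentages of all genes given for each line. Of 21 interferon ligand genes 18 were measured, and 14 of these lay below the array median on all 8 arrays. The other 4 were IFNA17, IFNE, IFNL1 and IFNL2. IFNA17 was higher in A549 than in the other lines by 1.435 (standard error 0.35, limma adjusted p = 0.0184). IFNE was too, by 2.32 (standard error 0.44, limma adjusted p = 0.00585), so these genes did not follow the split of IFNL1 and IFNL2. IFNL1, an interferon lambda, had 7.84 (SP) and 8.29 (MP) in H1650, 7.13 (SP) and 6.78 (MP) in H1975, 5.55 (SP) and 5.60 (MP) in A549, and 4.65 (SP) and 4.63 (MP) in H460. H1650 was 2.35 (standard error 0.31, limma adjusted p = 0.000791) above the other lines, and H1975 was above A549 by 1.37 (standard error 0.38, limma adjusted p = 0.0257). IFNL2, a close relative whose signal may be partly shared, had 6.22 (SP) and 7.10 (MP) in H1650, 6.06 (SP) and 6.73 (MP) in H1975, 5.11 (SP) and 5.04 (MP) in A549, and 4.89 (SP) and 4.86 (MP) in H460. IFNB1, the interferon beta gene, lay between 0.90 and 5.96 on the 8 arrays, and no line was called.

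Of 9 measured receptor and kinase genes, 2 were higher and 3 lower in H1650, 3 and 2 in H1975, 1 and 2 in A549, and 1 and 3 in H460. Of 17 sensors and adaptors, 5 were higher and 3 lower in H1650, 8 and 1 in H1975, 0 and 4 in A549, and 0 and 7 in H460. STING1, the adaptor of DNA sensing in the cytoplasm, had 9.10 (SP) and 9.07 (MP) in H1650, 9.61 (SP) and 9.94 (MP) in H1975, 6.70 (SP) and 6.42 (MP) in A549, and 5.60 (SP) and 6.17 (MP) in H460, with every EGFR mutant array above every K-Ras mutant array. AIM2 and IFI16, sensors of DNA, were higher in H1975 than in the other lines, by 4.92 (standard error 0.32, limma adjusted p = 3.07e-05) and 3.32 (standard error 0.11, limma adjusted p = 2.24e-06). Of 7 negative regulators, 3 were higher and 1 lower in H1650, 1 and 0 in H1975, 3 and 3 in A549, and 1 and 5 in H460. SOCS1, which blocks JAK kinases, was higher in H1650 by 1.80 (standard error 0.33, limma adjusted p = 0.00391), and SOCS3 was higher in H460 by 2.23 (standard error 0.33, limma adjusted p = 0.00137).

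Of 20 measured genes of antigen presentation and the interferon gamma response, 7 were higher and 4 lower in H1650, 14 and 1 in H1975, 1 and 11 in A549, and 8 and 4 in H460. GBP1, a guanylate-binding protein gene, had 12.07 (SP) and 12.26 (MP) in H1650, 12.13 (SP) and 12.22 (MP) in H1975, 8.33 (SP) and 8.92 (MP) in A549, and 8.08 (SP) and 8.56 (MP) in H460, the split seen for IFIT3. HLA-B, a class I antigen gene whose probe set can bind its relatives, had 13.46 (SP) and 13.23 (MP) in H1650, 13.57 (SP) and 13.86 (MP) in H1975, 11.19 (SP) and 11.65 (MP) in A549, and 13.65 (SP) and 13.63 (MP) in H460. A549 was below the other lines by a log2 difference of -2.15 (standard error 0.13, limma adjusted p = 3.59e-05), while H460, last for most of the 37 genes, was above them by 0.81 (standard error 0.13, limma adjusted p = 0.00239). Over all 71 measured genes of these other groups, 19 were higher and 11 lower in H1650, 26 and 6 in H1975, 7 and 21 in A549, and 10 and 21 in H460.

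Among 12275 other genes at or above the median signal, those most like the mean of the 37 centred genes over the 8 arrays were RBMXL1, PDGFC, CAPG, MFN1, UCA1, FBXO2, BCAP29, FUT1, TMEM38A and SVIL. Their Pearson r ran between 0.989 and 0.996. UCA1, a long noncoding RNA, had 12.97 (SP) and 12.75 (MP) in H1650, 11.10 (SP) and 10.93 (MP) in H1975, 5.74 (SP) and 6.28 (MP) in A549, and 5.20 (SP) and 5.11 (MP) in H460. The 8 arrays are 4 lines with 2 arrays each, and 4.21% of these genes had an r above 0.9. Of the 37 genes, 14 had an r above 0.9 with the mean of the others, and IRF7, OAS1, OAS3 and EPSTI1 had an r below 0. For 18 of the genes there were 22 further probe sets, of which 15 had the same highest line as the one used and 14 an r above 0.9 with it.

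The promoter table gives 300 bases around a start site, 250 of them before it, and 30 of the 37 genes had an entry. The ISRE letters were found for 22 of the 30 genes (73.3%), against 3.98% of the 15384 genes with a probe set and an entry. The GAS letters (TTCNNNGAA) were found for 11 of the 30 (36.7%), against 8.97%. Both strands were searched, and a GAS match can share letters with an ISRE match. ISRE letters were found for 7 of 8 genes with a gap of at least 4-fold between the EGFR and K-Ras mutant arrays, for 5 of 7 with a smaller gap, and for 10 of 15 with none. A match is a run of letters with a fixed spacing and was not tested as a binding site. Repeats with another spacing, as in OAS1, were not counted.

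**Figure D5:**
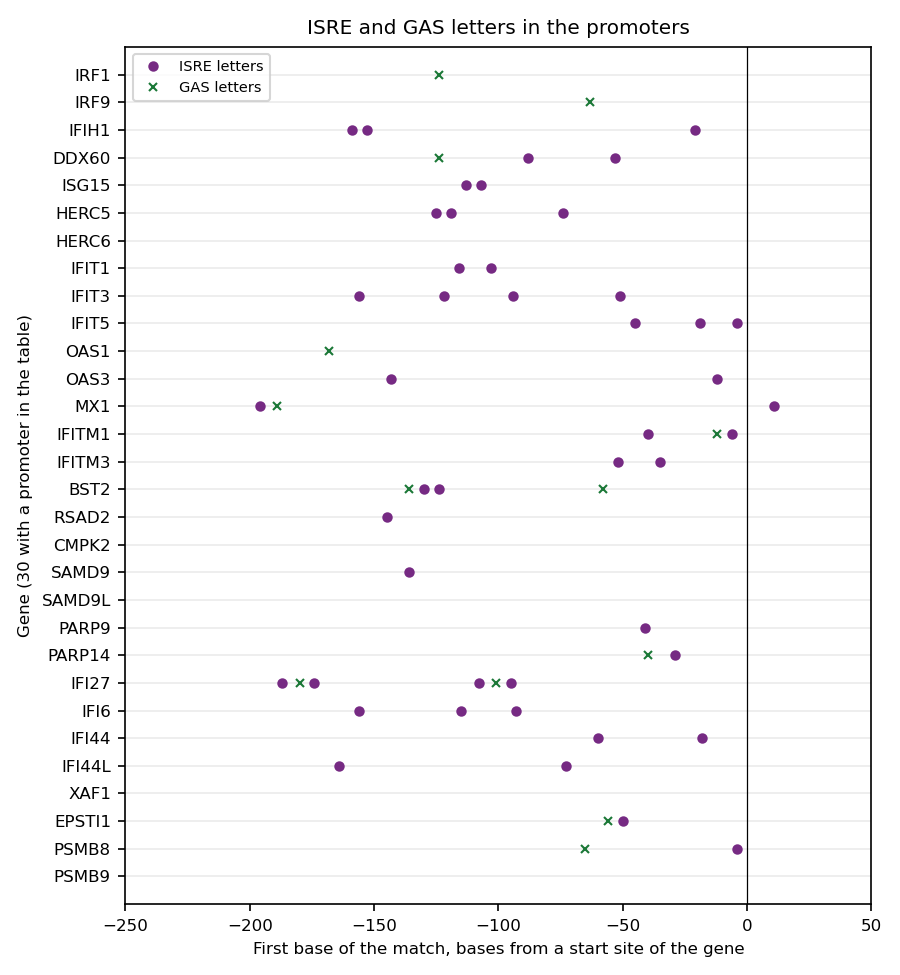
Position of the first base of each ISRE match (circles) and GAS match (crosses) relative to a start site (horizontal axis, bases, negative before the start), for the 30 genes with a promoter in the table. A gene with several start sites shows the matches of all of them, and 22 of the 30 genes have a circle.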

How the data were processed

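Expression was measured in sorted SP and MP cells of 4 lung cancer lines, 1 array for each population and line. Per the labels the authors deposited log2 signals made with GCOS 1.4 and the MAS5 algorithm, and each array's linear values have a 2% trimmed mean of 500.1. The study's methods also name a mean centring per gene, which is not part of these values. Of 54675 probe sets (62 of them controls), 41097 carried 1 gene symbol, 1801 several and 11777 none in the platform table, and only the first kind was used.

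The brightest probe set of each gene entered limma 3.58.1 (R 4.3.3, lmFit and eBayes with trend), with no filter, on all 19775 genes, and p-values were adjusted by Benjamini-Hochberg within each contrast. Lines were compared with the population as a covariate and SP with MP cells with the line as a block, which the labels pair, since both arrays of a number come from the same line (r of deviations 0.686 to 0.749). EGFR and K-Ras mutant lines were compared on line means, and ratios of 1 line against the other 3 on the 4 log2 ratios. The scripts were tested on simulated data. The number of arrays limits the precision. All 38 genes were to be named, with a fixed list of 78 other pathway genes, for which values are given only where a gene was called or singled out, and the 10 genes most like the members' mean. The members and lists were chosen with earlier results of these data known. Alternatives were a floor of 32, a pseudocount of 16, quantile and median scaling, a filter on dim genes, the mean of all probe sets, no variance trend, exchanged H1650 labels, no block, SP or MP arrays alone, and each array or line left out.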

Additional observations from a re-analysis of the deposited data

Results flagged for a closer look

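For OAS3 the SP array of H1975 exceeded the MP array by 0.369 on the log2 scale, while the ratios in the other 3 lines lay between -0.173 and -0.139, so H1975 stood apart from the others by 0.937 of the whole range. Among 111 groups of 4 values examined, 1 was set apart in this way, and chance gives about 1 in 20, or 5.55 of them.

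IRF9 moved in opposite directions by genotype: SP cells were lower than MP cells in both EGFR mutant lines (mean log2 ratio -0.317) and higher in both K-Ras mutant lines (mean 0.147), a difference of -0.464. This difference was flagged for its pattern and was not tested. The H1650 ratio in it was -0.32, from the pair in which ABCG2 went against the label (-0.70). With those labels exchanged, the sign of that ratio would reverse and the split by genotype would not hold.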

How the results depend on the processing

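No called line difference changed direction under the alternatives. Of 1856 values for 116 calls of single genes, 1732 kept direction and call, 124 lost the call and 0 reversed. The filter on dim genes, the fit without a variance trend and the exchanged H1650 labels leave these estimates unchanged. Under those settings no direction could reverse. Counts of the 37 genes moved as follows. With a floor of 32, 4 in place of 2 genes were lower in H1650 and 13 in place of 21 were higher in A549 than in H460, and the genes at least 2-fold higher in SP cells became 0 in H1650 and 0 in A549 and those at least 2-fold lower 0 in H460. With the mean of all probe sets, 1 gene was lower in H1650, 3 were at least 2-fold lower in SP cells in H1975 and 0 at least 2-fold higher in A549. Scaling to the same median left 3 genes higher in A549. Without the variance trend the counts were 1 lower in H1650, 3 higher in A549, 2 lower in H1975 than in A549 and 11 higher in A549 than in H460. Leaving out each array gave 1 to 2 genes lower in H1650, 1 to 5 higher and 16 to 23 lower in A549, 2 to 6 lower in H1975 than in A549 (against 4; 2 without the A549 MP or the H1975 SP array), 9 to 16 higher in H1650 than in H1975 and 10 to 21 higher in A549 than in H460. The cause of these changes was not tested. IRF1 in H1650 was called only narrowly (log2 difference 0.45, limma adjusted p = 0.0498). Without the replicate block, SP against MP cells gave 0 of the 37 genes at an adjusted or an unadjusted p under 0.05, 165 of all genes unadjusted, and a median of -0.171; leaving out each line gave 0 called and medians between -0.241 and -0.118. The ratio of 1 line against the other 3 called 247 genes for H1650, 454 for H1975, 397 for A549 and 157 for H460 with a floor of 32, none of them among the 37. With 2 arrays a line and 1 array per population, small differences could not be resolved.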
